A study of Mus musculus with 43 samples.

Results

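The 35 genes described here mark excitatory neurons of particular layers of the cerebral cortex. They were measured in neurons of mice kept in environmental enrichment (EE) or standard housing (SH). The first 14 genes form the upper-layer group, which runs from Cux1 to Bcl11b, and the other 21 form the deep-layer group. A member was kept in an RNA table when it reached 0.5 counts per M (CPM, with M for mega) in at least 6 libraries. By this rule 33 of the 35 members were kept in females and 32 in males, out of 53379 gene IDs in all. Open chromatin regions were taken when they lay within 100 kb of a member's start and no other protein-coding gene started nearer. These were 461 of 165184 regions in females and 540 of 192919 in males.

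All groups were wild-type Swiss Webster mice, weaned at postnatal day 25 and taken at 2 months of age. EE mice lived in bigger cages that held a wheel for running, a tube, more nesting and regularly exchanged toys, and SH mice in plain cages with bedding and a nestlet. Nuclei of frontal cortex were fixed, sorted for the neuronal nuclear protein NeuN, and used for nuclear RNA-seq or for ATAC-seq, in which a transposase inserts adapters where chromatin is open. There were 6 EE and 6 SH RNA libraries in females and the same in males, 3 EE and 3 SH ATAC libraries in females, and 6 EE and 7 SH ATAC libraries in males. Nothing in the labels says that replicates are separate animals, so p-values measure the spread between these libraries, which may be technical. Each sex was run separately, so sex and sequencing run cannot be told apart.

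The cortex is built in layers, and each layer holds excitatory neurons with their own targets. Upper-layer neurons mostly project within the cortex, and a middle layer receives input from the thalamus. Deep-layer neurons send axons to the brainstem, spinal cord, striatum and thalamus. A small set of transcription factors (Cux2, Rorb, Fezf2, Bcl11b, Tbr1) helps to set these identities during development and stays on in the adult. Bcl11b, also called Ctip2, is best known in subcerebral neurons of layer 5 and in striatal neurons. It stands here in the upper-layer group by the rule, and group values are also given with it moved.

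Sequencing depth, as total counts, was 10.6 to 15.4 M for the female and 10.4 to 14.6 M for the male RNA libraries. For ATAC it was 19.1 to 26.3 M in females and 27.7 to 73.8 M in males. The 6 excitatory neuron markers summed to between 2859 and 3443 CPM in every female library and between 2627 and 2989 CPM in every male library. This list includes Rbfox3, the gene of the sorted protein NeuN, which is on in most neurons and gave the larger part of the sum, at 2087 CPM in EE and 2154 CPM in SH on average in females. Slc17a7, the vesicular glutamate transporter of cortical excitatory neurons, averaged 104 CPM in EE and 107 CPM in SH there. Of these 6 excitatory markers, 2 had a log2 fold change above 0 in females (median -0.04). All 6 female EE libraries lay below the SH median for Camk2a (log2 fold change -0.15 ± 0.05) and for Neurod6 (-0.38 ± 0.15), and neither was called (edgeR adjusted p = 0.267 and 0.458). All 4 GABAergic neuron markers had a log2 fold change above 0 in females (median 0.25), and all 5 astrocyte markers one below 0 (median -0.36). In males all 5 astrocyte and all 5 oligodendrocyte markers were above 0 (medians 0.37 and 0.31). None of these markers was called. In female libraries the 6 markers of striatal projection neurons summed to between 72.5 and 239 CPM in EE (median 176) and between 42.3 and 167 CPM in SH (median 120). None of the 6 was at a count of 0 in all libraries. All 6 had a log2 fold change above 0 (median 0.42), none of them past the adjusted threshold. Female SH replicate 2 had the highest levels of astrocyte, oligodendrocyte, microglial and vascular markers, with a mean log2 level of 1.49 over these lists relative to the average female library. Their part in the results below was not tested. Values without that library or with a marker level as covariate are given in places as descriptions.

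Start-site sequences are shown for 3 members where open chromatin was measured. Cartpt had the largest RNA difference of any tested member, on few reads. Tle4 had the smallest p of any deep-layer region in males, and Rorb was among the most variable members between libraries. RefSeq promoter windows (GRCm38.p6, from 250 bases before the start to 50 after it) were found for 21 of the 35 members. Each is printed 5′ to 3′ on the gene's strand. Capitals mark TGACGTCA, the cAMP response element, in Cartpt, and a match to GCGNGGGCG, the site of EGR factors, in Tle4 and Rorb, both motifs searched on both strands.
Cartpt: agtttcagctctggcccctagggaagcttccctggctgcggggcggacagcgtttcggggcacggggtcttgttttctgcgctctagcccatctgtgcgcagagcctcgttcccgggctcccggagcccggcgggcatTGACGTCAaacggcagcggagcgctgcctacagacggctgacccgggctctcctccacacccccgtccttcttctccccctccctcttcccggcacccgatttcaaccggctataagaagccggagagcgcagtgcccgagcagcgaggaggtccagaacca
Tle4: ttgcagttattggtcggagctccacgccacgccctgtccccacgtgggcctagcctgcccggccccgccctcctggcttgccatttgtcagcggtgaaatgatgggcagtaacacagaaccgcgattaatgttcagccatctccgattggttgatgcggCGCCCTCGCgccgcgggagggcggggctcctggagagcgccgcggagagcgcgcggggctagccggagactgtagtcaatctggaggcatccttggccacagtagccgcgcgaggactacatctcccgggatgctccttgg
Rorb: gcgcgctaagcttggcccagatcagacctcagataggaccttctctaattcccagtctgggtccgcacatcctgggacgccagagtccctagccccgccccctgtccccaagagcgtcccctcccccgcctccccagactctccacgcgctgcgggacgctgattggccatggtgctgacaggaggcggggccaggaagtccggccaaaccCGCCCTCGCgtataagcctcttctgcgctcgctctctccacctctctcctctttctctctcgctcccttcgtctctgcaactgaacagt

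The windows lie on the minus strand at chr13:99900634-99900933 (Cartpt), chr19:14598134-14598433 (Tle4) and chr19:19111147-19111446 (Rorb). The capitals begin 112 bases before the RefSeq start in Cartpt, 91 in Tle4 and 39 in Rorb. TGACGTCA occurs in 1.79% of all 32851 promoter windows and in 1 of the 21 member windows. GCGNGGGCG occurs in 5.55% of all windows and in 5 of the 21 member windows (Fezf2, Lhx2, Pou3f2, Rorb and Tle4). A match describes letters only and is not a shown binding site. Male ATAC regions covered all 3 windows, and female regions covered those of Tle4 and Rorb.

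Levels were compared between genes per kb of gene span, because the deposited tables count introns as well as exons. On this scale of CPM per kb, averaged over the libraries of a sex, the highest members in females were Hs3st4 (2.76), an enzyme that sulfates heparan sulfate, Tbr1 (2.25), the T-box factor of layer 6, Cux2 (2.24), a homeodomain factor of the upper layers, and Unc5d (2.18), a netrin receptor. In males they were Tbr1 (2.07), Hs3st4 (1.81), Tox (1.73), Pou3f2 (1.70) and Ldb2 (1.67). The lowest tested members in females were Pcp4 (0.0292), Ntsr1 (0.223), Pou3f1 (0.230) and Deptor (0.242). In males they were Pcp4 (0.0341), Oprk1 (0.179), Ntsr1 (0.184) and Foxp2 (0.234). Over the 35 members the female and male orders had a Spearman rho of 0.797, a description across genes that share length and annotation.

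**Figure D1:**
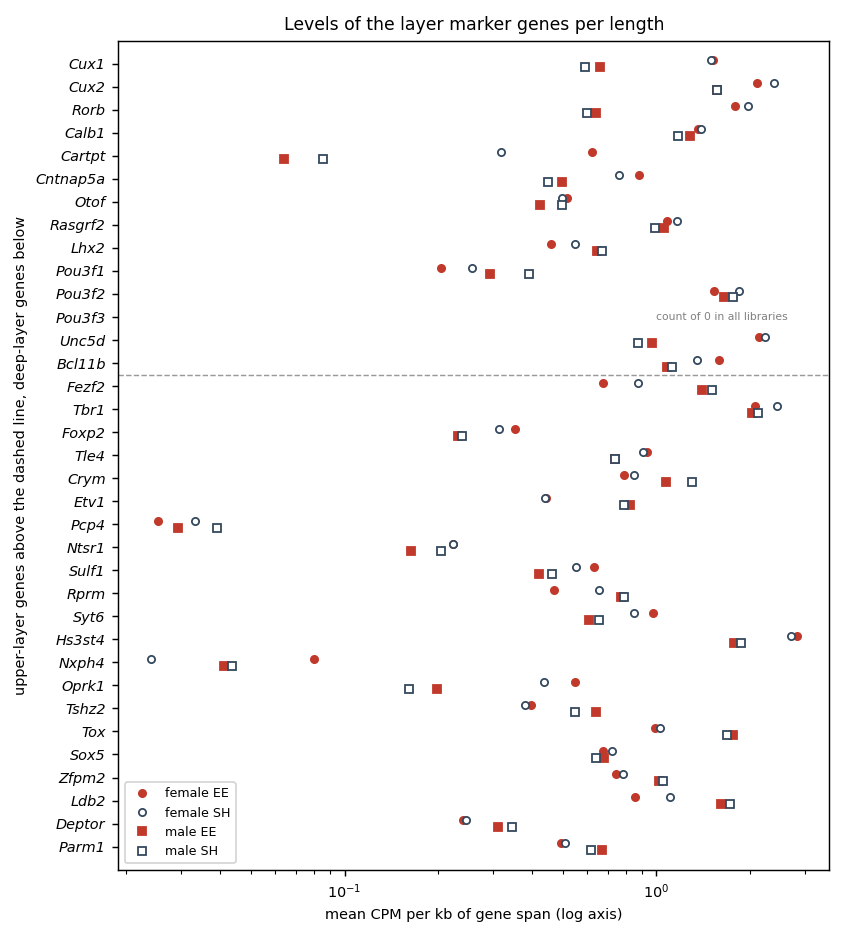
Mean CPM per kb of gene span (log axis) of each layer marker gene in female libraries (circles) and male libraries (squares), EE filled and SH open. Within a sex the EE and SH points of most genes lie close together, while Cux1, Rorb and Cartpt lie further right in females and Tox, Ldb2 and Fezf2 further right in males.

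Several members stood at different levels in the tables of the sexes. Rorb, the nuclear receptor of layer 4, averaged 322 ± 40.3 CPM in female EE libraries and 355 ± 88.5 CPM in female SH libraries, against 115 ± 25.4 and 108 ± 17.4 CPM in male EE and SH libraries (SD, n = 6 each). Cux1 had 461 to 534 CPM in female EE and 409.7 to 553 CPM in female SH libraries, and 181 to 239 CPM in male EE and 158 to 208 CPM in male SH libraries. Ldb2, a cofactor of LIM-domain factors, ran the other way. These are levels from separate runs and carry no test. In bulk nuclei, fewer cells of a type and less RNA per cell cannot be told apart.

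The counting left some members without a usable value. Pou3f3, a POU factor of the upper layers, had a count of 0 in all 24 RNA libraries. Its whole span lies inside AC122898.1 on the same strand, which had 66.6 CPM in females and 57.2 CPM in males, so the level of Pou3f3 is unknown here. Pcp4, a calmodulin-binding protein, overlaps Igsf5 on the same strand over 99.6% of its span, and its low values are uncertain for the same reason. Tshz2 and Cux1 are overlapped on the other strand by Gm26883 over 58.1% and by Gm16599 over 44.8%, both at under 10 CPM on average in either sex. Pou3f1, itself of low level, is overlapped on the other strand over 9.43% of its span by Gm2164. That gene had 98.45 CPM in females and 160.1 CPM in males, so the values of Pou3f1 are uncertain too. Use of strand in the counting is not given in the sources used here, so those reads may be shared.

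The first comparison asks whether housing moved layer genes in female neurons. No member passed an adjusted p of 0.05 in edgeR's quasi-likelihood test, and none of the 14587 genes tested did (0.0%), while DESeq2 called 117 genes, Cntnap5a and Ldb2 among them. Of 32 tested members, 9 had an unadjusted p under 0.05, against 8.67% of all genes tested. They were 6 of 13 upper-layer genes (Cntnap5a and Cartpt higher, Cux2, Lhx2, Rasgrf2 and Pou3f2 lower) and 3 of 19 deep-layer genes (Oprk1 higher, Ldb2 and Tbr1 lower). The median log2 fold change was -0.07 over the upper-layer members, with 5 higher and 8 lower, and -0.03 over the deep-layer members, with 9 higher and 10 lower. The deep-layer median was 0.0008 without EE replicate 4 and 0.0349 without SH replicate 3. Over all genes tested it was 0.00, with 50.6% higher. With Bcl11b moved to the deep group the medians were -0.09 and -0.01.

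Among upper-layer members the smallest p in females was that of Cntnap5a, an adhesion protein of the neurexin superfamily (ENSMUSG00000070695). Its lowest, median and highest values were 708, 794 and 855 CPM in EE and 618, 675 and 742 CPM in SH. All 6 EE libraries lay above the SH median, and the groups overlapped. The log2 fold change was 0.22 ± 0.05 (SE), with an edgeR quasi-likelihood adjusted p of 0.163. Under the other settings its adjusted p ran from 0.00214 to 0.385, and it was called by DESeq2 (log2 fold change 0.21, adjusted p = 0.0272) and without the low-count filter (0.23, edgeR adjusted p = 0.00214).

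Cux2 (chr5:121856366-122050102, mm10) had 370, 411 and 425 CPM in EE and 407, 470 and 506 CPM in SH as lowest, median and highest values. All 6 EE libraries lay below the SH median, and the lowest SH library, at 407 CPM, lay among the EE libraries. The log2 fold change was -0.19 ± 0.05, with an adjusted p of 0.214 in edgeR's quasi-likelihood test (0.0538 to 0.465 under the other settings). The other homeodomain factor, Cux1, stood at a log2 fold change of 0.02 ± 0.06, with a 95% interval from -0.11 to 0.15. The interval of Cux1 thus excludes a change as large as the fitted value of Cux2. The interval of Cux2, from -0.30 to -0.08, overlapped that of Cux1, and the genes were not tested against each other.

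Cartpt, the precursor of the neuropeptide CART, had 1.098, 1.758 and 1.906 CPM in EE and 0.543, 0.812 and 1.16 CPM in SH as lowest, median and highest values. All 6 EE libraries lay above the SH median. These levels rest on 130 reads in 6 EE libraries and 59 reads in 6 SH libraries. The log2 fold change was 0.97 ± 0.26, the largest of any tested member in females, and the edgeR adjusted p was 0.191. Its SH levels lay near the test's count filter, so being tested rested mainly on the EE libraries. The rank among tested members is thus partly set by that filter. Cartpt is a low-count gene, and its 95% interval ran from 0.42 to 1.52.

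Several regulators in the upper-layer group had lower female EE means. Lhx2, a LIM homeodomain factor, averaged 14.02 ± 1.16 CPM in EE and 16.6 ± 2.13 CPM in SH, and Pou3f2, a POU factor also called Brn2, averaged 8.57 ± 1.63 CPM in EE and 10.2 ± 0.815 CPM in SH (SD, n = 6 each). Pou3f1 stood at a log2 fold change of -0.32 ± 0.35, on 64 EE and 72 SH reads. Rasgrf2, an exchange factor for Ras and Rac, averaged 271 ± 15.9 CPM in EE and 293 ± 13.9 CPM in SH. None passed the adjusted threshold (edgeR adjusted p of 0.43 for Lhx2, 0.56 for Pou3f2, 0.85 for Pou3f1 and 0.528 for Rasgrf2).

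**Figure D2:**
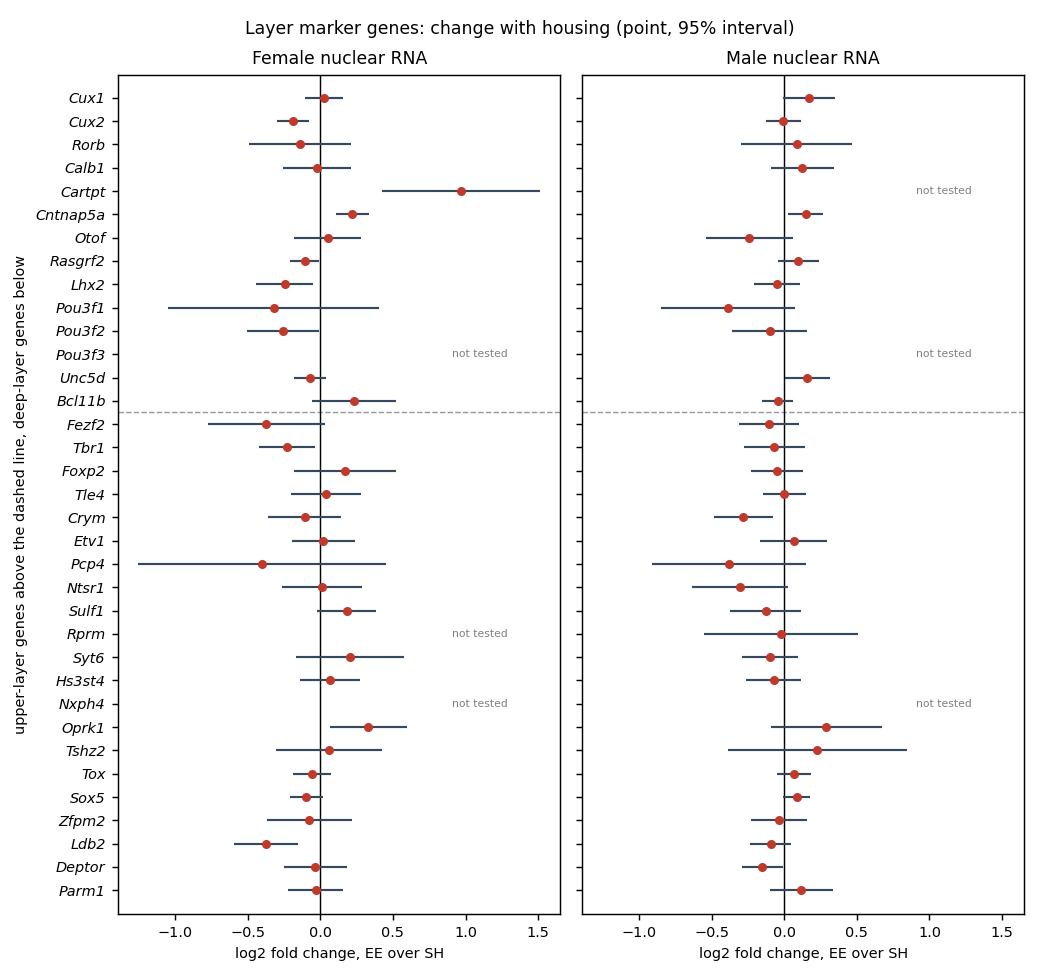
Log2 fold change of each tested member, EE over SH, in female and male nuclear RNA (points) with 95% intervals (lines). In females Cartpt lies furthest right at 0.97 with an interval from 0.42 to 1.52, and in males the intervals of all tested members lie between -1 and 1.

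Ldb2 (chr5, ENSMUSG00000039706) had the smallest p of the deep-layer members in females. Its lowest, median and highest values were 247, 265 and 328 CPM in EE and 260.3, 380 and 402 CPM in SH. All 6 EE libraries lay below the SH median, and 5 of the 6 SH libraries lay above every EE library. The exception was SH replicate 2, at 260.3 CPM, which is also the library with the highest non-neuronal markers. With all libraries the log2 fold change was -0.37 ± 0.10 and the edgeR adjusted p was 0.241. Without SH replicate 2 it was -0.45 ± 0.06 with an adjusted p of 0.0013, and with all libraries and a covariate for the non-neuronal markers it was -0.37 ± 0.06 with an adjusted p of 0.0118. These settings are not independent, since the covariate was highest in SH replicate 2 (mean log2 level 1.49). Leaving out the only SH library within the EE range also narrows the SH spread. DESeq2 on all libraries gave -0.38 with an adjusted p of 0.0186. Over all the other settings run, in edgeR or DESeq2, the adjusted p of female Ldb2 ran from 0.0013 to 0.465. In males Ldb2 stood at -0.10 ± 0.07 (edgeR adjusted p = 0.763), with 460.3 to 624.8 CPM in EE and 477 to 596 CPM in SH.

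The factors that set deep-layer identity gave no called difference in females. Tbr1 had 20.2, 21.9 and 30.0 CPM in EE and 24.5, 27.0 and 30.6 CPM in SH as lowest, median and highest values, and 5 of 6 EE libraries lay below the SH median. Its log2 fold change was -0.23 ± 0.09, with an edgeR adjusted p of 0.473. Fezf2, the zinc finger factor of subcerebral neurons, had 2.76, 4.21 and 5.198 CPM in EE and 3.34, 5.64 and 6.96 CPM in SH. All 6 EE libraries lay below the SH median, and the log2 fold change was -0.37 ± 0.19, with a 95% interval from -0.77 to 0.03 (edgeR adjusted p = 0.615). The kappa opioid receptor gene Oprk1 went the other way, with 8.67, 9.02 and 12.01 CPM in EE and 5.999, 7.70 and 9.097 CPM in SH and a log2 fold change of 0.33 ± 0.13 (edgeR adjusted p = 0.445).

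Bcl11b and Foxp2 are also expressed in striatal projection neurons, and their highest and lowest female libraries were those with the highest and lowest striatal marker level. Bcl11b had 116, 147 and 174 CPM in EE and 93.2, 126 and 161 CPM in SH, with a log2 fold change of 0.23 ± 0.13 (edgeR adjusted p = 0.674). Foxp2, a forkhead factor of layer 6, had 148, 190 and 246 CPM in EE and 125, 169 and 233 CPM in SH, with a log2 fold change of 0.17 ± 0.16 (edgeR adjusted p = 0.818). For both genes the highest was EE replicate 1, where the striatal markers had a mean log2 level of 0.764 relative to the average female library. The lowest for both was SH replicate 5, where the striatal level was -1.29. With the striatal level as covariate the log2 fold change of Foxp2 was -0.01 and that of Bcl11b 0.09 ± 0.10 (edgeR adjusted p = 0.866). All 6 striatal markers were themselves higher in EE, so housing and striatal level cannot be told apart with this covariate. The part of striatal nuclei was not tested.

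**Figure D3:**
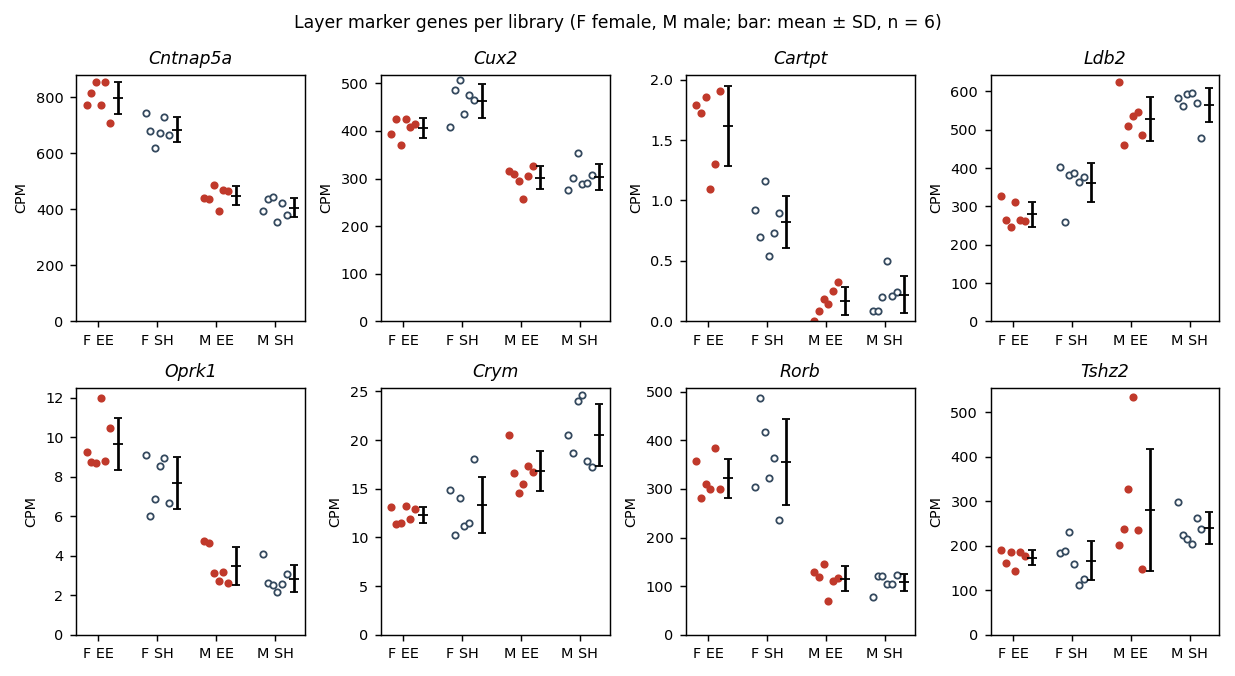
CPM of 8 layer marker genes in each RNA library, EE (filled) left of SH (open) within females (F) and males (M), with mean and SD beside each group of 6. The female EE points of Cntnap5a and Cartpt lie mostly above the SH points, those of Cux2 and Ldb2 mostly below, and for Tshz2 a single male EE library at 533 CPM stands above all others.

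Members that the test left out are given by level. Nxph4, a neurexophilin of the deepest layer, had 59 reads in 6 female EE libraries and 16 reads in 6 female SH libraries, or 0.337 to 1.00 CPM in EE and 0 to 0.467 CPM in SH. In males it had 26 reads in EE and 31 in SH. It missed the minimum level in both tables. Rprm reached the minimum level in 10 female libraries but not the test's own count filter, with 0.687 ± 0.308 CPM in EE and 0.954 ± 0.417 CPM in SH. Cartpt in males had 12 reads in 6 EE libraries and 17 reads in 6 SH libraries and missed the minimum level there.

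In male neurons no member passed the adjusted threshold, against 6 of 14597 genes tested (0.0411%), and DESeq2 called no member among 61 genes. DESeq2 gave no adjusted p to 11037 of the 14597 genes, so those could not be called by it. Unadjusted p-values fell under 0.05 for 4 of 32 tested members, and for 8.03% of all genes tested. They were Cntnap5a and Unc5d, both higher, among 12 upper-layer genes and Crym and Deptor, both lower, among 20 deep-layer genes. The median log2 fold change was 0.04 over the upper-layer members, with 6 higher and 6 lower, and -0.06 over the deep-layer members, with 6 higher and 14 lower. Over all genes tested it was -0.01, with 47.9% higher. With Bcl11b moved the medians were 0.08, with 6 of 11 higher, and -0.05, with 6 of 21 higher. The upper-layer median was -0.0097 without SH replicate 1.

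Crym, which encodes a thyroid hormone binding protein, had the smallest p of the male deep-layer members. Its lowest, median and highest values were 14.5, 16.6 and 20.5 CPM in EE and 17.2, 19.6 and 24.6 CPM in SH. Of the EE libraries 5 of 6 lay below the SH median, and the log2 fold change was -0.28 ± 0.10 (edgeR adjusted p = 0.425). Deptor, an inhibitor of mTOR, had 40.9, 44.8 and 51.5 CPM in EE and 44.2, 48.5 and 58.6 CPM in SH, with a log2 fold change of -0.15 ± 0.07 (edgeR adjusted p = 0.593). Ntsr1, the neurotensin receptor of layer 6, had 4.76, 7.82 and 9.42 CPM in EE and 7.86, 8.93 and 10.8 CPM in SH (log2 fold change -0.31 ± 0.16, edgeR adjusted p = 0.652). In all 3 genes the groups overlapped. Fezf2, Tbr1 and Foxp2 had male log2 fold changes of -0.11, -0.07 and -0.05, and none was called.

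Upper-layer genes in males included Cntnap5a, with 392.2, 452 and 486 CPM in EE and 355, 408 and 442 CPM in SH and a log2 fold change of 0.15 ± 0.06 (edgeR adjusted p = 0.486). Unc5d had 511, 547 and 620.0 CPM in EE and 407, 534 and 543 CPM in SH, with a log2 fold change of 0.16 ± 0.07 (edgeR adjusted p = 0.614). In both genes 5 of 6 EE libraries lay above the SH median. Cux1 had 181, 217 and 239 CPM in EE and 158, 194 and 208 CPM in SH, with a log2 fold change of 0.17 ± 0.08 (edgeR adjusted p = 0.652). Cux2, at 302 ± 23.9 CPM in EE and 303 ± 26.5 CPM in SH, stood at a log2 fold change of -0.01 ± 0.06, with a 95% interval from -0.13 to 0.12. Rorb stood at 0.08 ± 0.17 and Bcl11b at -0.05 ± 0.05.

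The size of change that these data leave possible can be read from the 95% intervals. They lay within a log2 fold change of 0.5 in either direction for 22 of 32 tested members in females and 25 of 32 in males. Within a log2 fold change of 1 lay 29 of 32 in females and 32 of 32 in males. The 3 female genes whose intervals were wider were Cartpt, Pou3f1 and Pcp4, all under 2 CPM on average. No member had EE and SH libraries that did not overlap, in either sex, as against 0.548% of all genes tested in females and 0.541% in males.

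Between the sexes, 16 of the 31 members tested in both had a log2 fold change of the same sign and 15 of opposite sign. Cntnap5a and Oprk1 were higher in EE in both sexes, and for Oprk1 all 6 EE libraries lay above the SH median in each sex. Of 12 upper-layer members, 4 were lower in female EE and higher in male EE and 2 the reverse. In an edgeR fit of all 24 RNA libraries, the sex by housing interaction was called for no member and for 1 of 15562 genes (0.00643%), and DESeq2 called no member. DESeq2 gave no adjusted p to 11163 of these genes. Unadjusted p-values fell under 0.05 for 6 of 33 members, and for 8.98% of all genes tested. The female minus male difference in log2 fold change was -0.23 ± 0.09 for Unc5d, -0.21 ± 0.08 for Rasgrf2, -0.18 ± 0.08 for Cux2 and 1.32 ± 0.60 for Cartpt. Cartpt missed the minimum level in males and entered this fit through its female libraries, so its difference is uncertain. Among deep-layer genes it was -0.28 ± 0.13 for Ldb2 and -0.18 ± 0.07 for Sox5, an SRY-box factor of early-born neurons. The smallest edgeR adjusted p of any member was 0.412.

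Layer genes at 32 CPM or more varied between libraries of one housing group more than most genes above that minimum did. This is given as a description with no test, and genes were not matched by level above the minimum. Among genes averaging 32 CPM or more, the median within-group SD of log2 CPM was 0.0986 over 4242 genes in females and 0.0813 over 4147 genes in males. Of the 22 members at that level, 19 exceeded the median in females and 21 in males. In the top 10% of all such genes stood 15 members in females and 15 in males. The most variable were Syt6 (SD 0.302), Tshz2 (0.300), Rorb (0.286) and Foxp2 (0.281) in females and Tshz2 (0.472), Rorb (0.314) and Otof (0.258) in males. At the other end stood Rasgrf2 (0.0771) in females and Sox5 (0.079) in males.

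Tshz2, a teashirt zinc finger gene, had the widest spread in males among members at 32 CPM or more. Its male values were 148, 236 and 533 CPM in EE and 203, 230.3 and 299 CPM in SH as lowest, median and highest. The highest value was EE replicate 4, which also had the lowest male Rorb, at 69.8 CPM, and the highest male SH value, 299 CPM in replicate 1, stood in the library with the lowest Rorb of that group, at 77.0 CPM. That EE library also had the highest oligodendrocyte marker sum of any male library, at 229 CPM, and its part in these values was not tested. In females Tshz2 ran from 143 to 190 CPM in EE and from 112 to 232 CPM in SH, and the libraries with the highest Tshz2 (EE replicate 1 and SH replicate 3) were not those with the lowest Rorb (EE replicate 2 and SH replicate 6). Its log2 fold change was 0.06 ± 0.17 in females and 0.23 ± 0.28 in males (edgeR adjusted p = 0.952 and 0.89).

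**Figure D4:**
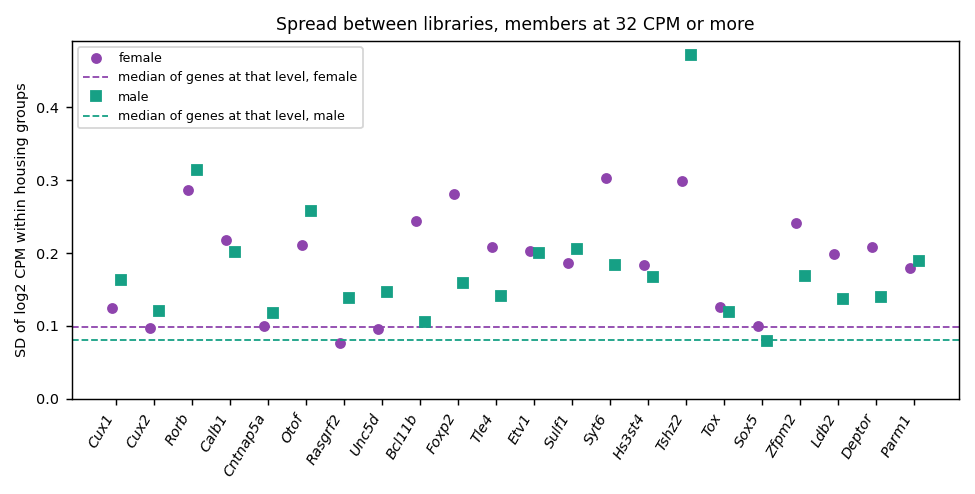
SD of log2 CPM between libraries of the same housing group for the 22 members at 32 CPM or more, in females (circles) and males (squares), with the median over all genes at that level as dashed lines. Most members lie above both lines, and the male Tshz2 point at 0.472 is the highest.

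Other known layer genes that are not members were counted in the same way. Of 10 further upper-layer genes tested in females, 3 were higher in EE and 3 had an unadjusted p under 0.05. Of 12 further deep-layer genes, 9 were higher and 2 had an unadjusted p under 0.05. In males 8 of 10 upper-layer genes were higher, with 2 under 0.05, and 5 of 13 deep-layer genes were higher, with 2 under 0.05. None of these genes was called in either sex. Their median log2 fold changes were -0.07 (upper) and 0.11 (deep) in females and 0.10 (upper) and -0.09 (deep) in males.

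Open chromatin near the members was compared next. In females none of the 460 tested member regions passed the adjusted threshold, against 78 of 164926 regions tested (0.0473%), and DESeq2 called no member region either. DESeq2 gave no adjusted p to 95927 of the 164926 regions, so those could not be called by it. Groups did not overlap in 42 of 460 member regions, or 9.13%, and in 12.8% of all regions tested. Near upper-layer genes the median log2 fold change was -0.01, with 108 of 228 regions higher. Near deep-layer genes it was 0.09, with 150 of 232 regions higher, or 64.7%, against 48.3% of all regions tested. Unadjusted p-values fell under 0.05 for 9.91% of the deep-layer regions and 3.95% of the upper-layer regions, against 8.01% of all regions. With Bcl11b moved, 175 of 289 deep-layer regions were higher, or 60.6%, with a median of 0.06, and 83 of 171 upper-layer regions were. Within 20 kb of a start, 55 of 102 deep-layer regions were higher, or 53.9%, with a median of 0.04. Regions of 1 gene share its neighbourhood and are not independent.

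Of the 21 deep-layer genes, 16 had a median log2 fold change above 0 over their female regions, against 5 of the 14 upper-layer genes. Over male regions 9 of the 21 deep-layer and 8 of the 14 upper-layer genes did. All 13 regions near Tox, an HMG-box factor, were higher in female EE (median log2 fold change 0.22), as were 10 of 12 near Sulf1, an extracellular heparan sulfatase, 10 of 11 near Rprm, 7 of 8 near Etv1, an ETS factor of layer 5, 7 of 8 near Parm1 (median 0.25) and 5 of 6 near Foxp2 (median 0.21). None of the 6 regions near Ntsr1 was higher, and 3 of 12 near Cux2 were (median -0.25). In males 4 of 26 regions near Tox were higher (median -0.12) and all 6 near Ntsr1 were (median 0.04), so for both genes the direction differed between the sexes. That difference was not tested. For the other genes named here, male regions were higher in 17 of 21 near Etv1, 10 of 16 near Sulf1 and 8 of 15 near Parm1. They were higher in 5 of 12 near Rprm, 5 of 14 near Foxp2 and 7 of 12 near Cux2.

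The single regions with the smallest p values in females are given as examples. Region chr2:54060700-54061435, 24117 bases downstream of the start of the cell-cycle gene Rprm, had 7.63, 7.43 and 8.41 CPM in EE and 5.21, 5.98 and 4.76 CPM in SH. The groups did not overlap, and the log2 fold change was 0.56 ± 0.18 (edgeR adjusted p = 0.259). Region chr4:6990304-6990796, inside Tox and close to its start, had 4.68, 4.84 and 4.41 CPM in EE and 3.08, 3.07 and 2.53 CPM in SH (log2 fold change 0.68 ± 0.21, edgeR adjusted p = 0.266). Both lay above every SH value in all 3 EE libraries. A lower region lay upstream of Pou3f3 at chr1:42676645-42677294, with 1.60, 1.94 and 1.70 CPM in EE and 3.21, 2.80 and 2.92 CPM in SH (log2 fold change -0.77 ± 0.26, edgeR adjusted p = 0.33). Within Bcl11b, region chr12:107975491-107977023 had 14.3, 14.2 and 15.5 CPM in EE and 17.2, 18.9 and 20.3 CPM in SH (log2 fold change -0.36 ± 0.12, edgeR adjusted p = 0.352). Its sign is opposite to that of Bcl11b RNA in the same sex. The third regions by p in each group were both higher in EE, and their groups did not overlap. They lay upstream of Pou3f2 (log2 fold change 0.41 ± 0.15, edgeR adjusted p = 0.4) and of Sulf1 (0.445 ± 0.17, edgeR adjusted p = 0.43). With an unadjusted p under 0.05, 5 upper-layer regions were higher and 4 lower, and 18 deep-layer regions were higher and 5 lower.

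In males none of the 540 member regions was called, and none of the 192834 regions tested was (0.0%), and DESeq2 called 7 regions, none near a member. Unadjusted p-values fell under 0.05 for 27 member regions, and for 4.54% of all regions. The median log2 fold change was 0.01 near upper-layer genes, with 123 of 237 regions higher, and -0.01 near deep-layer genes, with 148 of 303 higher, against 49.7% of all regions tested. With Bcl11b moved, 104 of 198 upper-layer and 167 of 342 deep-layer regions were higher. No member region had EE and SH libraries that did not overlap, as against 0.123% of all regions. The smallest p among them belonged to a region 89772 bases upstream of Calb1, the calbindin gene, with 3.64 to 5.35 CPM in EE and 2.26 to 3.90 CPM in SH (log2 fold change 0.41 ± 0.12, edgeR adjusted p = 1.0).

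**Figure D5:**
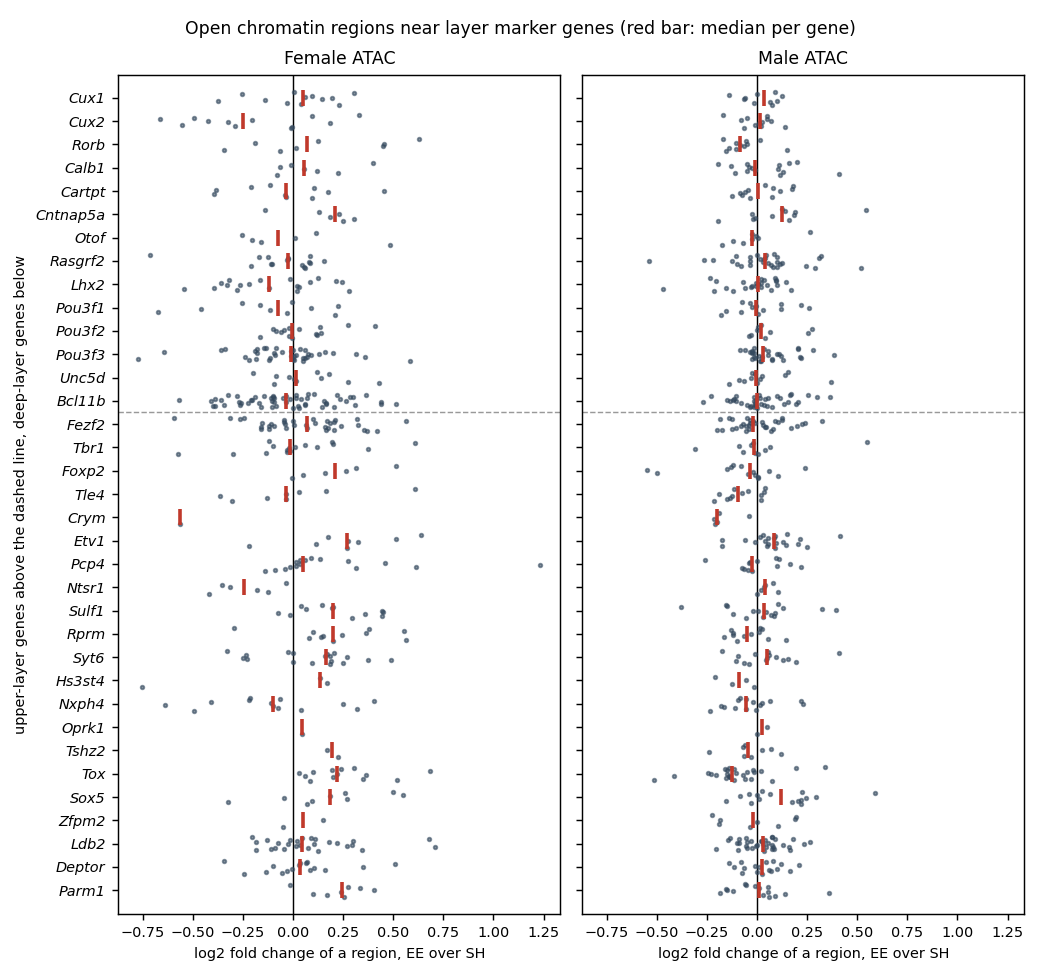
Log2 fold change, EE over SH, of each tested open chromatin region near a layer marker gene in females and males, 1 point per region, with a bar at each gene's median. In females the points of Tox all lie right of 0 and those of Ntsr1 all lie left of 0, and male points lie closer to 0.

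Regions over the starts themselves were found for 24 members in females and 30 in males. The Tle4 start region, over the window printed above, had 45.3 ± 2.74 CPM in male EE libraries and 51.7 ± 4.58 CPM in male SH libraries (SD, n = 6 and 7). Its log2 fold change was -0.19 ± 0.06 with an edgeR adjusted p of 1.0, and in females it was -0.03 ± 0.11. Tle4, a corepressor of layer 6, had RNA log2 fold changes of 0.00 ± 0.07 in males and 0.04 ± 0.11 in females. Over the Cartpt window the male region had 5.13 ± 0.784 CPM in EE and 5.28 ± 0.288 CPM in SH. Over the Rorb window the female region had 18.8 ± 2.86 CPM in EE and 17.3 ± 1.83 CPM in SH (SD, n = 3 each). The Pou3f3 start was open, at 40.5 ± 4.46 CPM in female EE and 40.4 ± 1.61 CPM in female SH libraries, although its RNA count was 0.

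The female groups did not overlap at the Cntnap5a start region chr1:115684124-115687234. It had 21.9, 20.9 and 19.4 CPM in EE and 19.2, 17.01 and 16.7 CPM in SH. The log2 fold change of 0.23 ± 0.12 (edgeR adjusted p = 0.64) has the sign of its RNA. They did not overlap at the Rasgrf2 start either, where the log2 fold change was 0.16 ± 0.12 (edgeR adjusted p = 0.807). That sign is opposite to that of Rasgrf2 RNA, at -0.11. Nor did the female groups overlap at the starts of Sulf1 (0.36 ± 0.15, edgeR adjusted p = 0.525) and Parm1 (0.24 ± 0.14, edgeR adjusted p = 0.712). Among all female regions tested, groups did not overlap in 12.8%. In males the Cntnap5a start region stood at -0.03 ± 0.08, while Cntnap5a RNA stood at 0.15 ± 0.06. Over the members with a start region that were also tested in RNA, accessibility in SH libraries per kb of the region and RNA per kb of the gene had a Spearman rho of 0.118 in females (22 members) and 0.031 in males (28 members), descriptions across genes only.

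Female and male regions overlapped in 413 pairs, which held 89.4% of the female member regions and 55.7% of the male ones. The sign of the log2 fold change was the same in 47.7% of the pairs. No pair had an unadjusted p under 0.05 in both sexes.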

How the data were processed

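Per the labels, nuclei of frontal cortex were fixed, sorted for NeuN and used for nuclear RNA-seq or ATAC-seq. The deposited tables hold raw read counts per gene (introns and exons) or per region, not normalized by the authors. The submitters' notes name build mm10 and the tools DiffBind 3.2.2, MACS2 2.1.1, bedtools, edgeR, STAR 2.5.4, SAMtools 1.3.1 and DESeq2 1.16.1, per the labels' processing fields; the read counter is not given in the sources used here. Columns of the male RNA table were taken by position, because its header is offset. Region coordinates are as deposited.

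Every table had its own fit in edgeR 4.0.16 (R 4.3.3): TMM scaling, default count filter, robust quasi-likelihood F test of housing, Benjamini-Hochberg adjustment over the whole table, calls at an adjusted p under 0.05. SE is the log2 fold change divided by the square root of F, CPM uses the TMM-scaled library size, and intervals are 95%. Regions went to the nearest of 20911 protein-coding starts. The fits were checked on simulated counts. Alternatives were DESeq2 1.42.0, other scaling and filters, left-out libraries, a replicate block, marker covariates, a distance of 20 kb and Bcl11b as deep-layer.

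Library values were computed for the 3 upper- and 3 deep-layer members with the smallest p per RNA table and for called members. They were also computed for Cux2, Rorb, Bcl11b, Fezf2, Tbr1 and Foxp2. The same was done for the 3 regions with the smallest p per group and the start regions of these genes. Only part of these values is printed above. Tshz2 and Tle4, and the lists of regions by gene, were picked after values were seen. Members and lists were chosen with earlier results of these data known.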

Additional observations from a re-analysis of the deposited data

Results flagged for a closer look

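In 100 groups of 4 to 10 libraries checked for a value far from the rest, 4 stood out, and chance alone gives about 5. Ldb2 RNA in female SH replicate 2, at 260.3 CPM, lay far below the other female SH libraries. Ldb2 RNA in male SH replicate 6, at 477.4 CPM, lay below the other male SH libraries. The Ntsr1 start region in male EE replicate 3, at 8.722 CPM, and the Foxp2 start region in male SH replicate 6, at 31.26 CPM, lay above the other libraries of their groups.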

How the results depend on the processing

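The count of called members was 0 in all 5 comparisons and moved in female and male RNA only. In female RNA 2 members were called by DESeq2 (Ldb2 and Cntnap5a), 1 without the low-count filter (Cntnap5a), 1 with the replicate block (Cntnap5a), 1 with the non-neuronal marker covariate (Ldb2), and 0 to 1 with a library left out (Ldb2, without SH replicate 2). In male RNA 2 were called without the low-count filter (Cux1 and Unc5d). No member region and no member interaction was called under any setting run, though DESeq2 left many features without an adjusted p. The replicate numbers were not taken to pair the samples, since in no table did every pair of same-numbered libraries correlate above 0.1 (0.036 to 0.306 in female RNA, -0.03 to 0.226 in male RNA). In female RNA 3 of 6 pairs did, each of them matching its own number best, which is a hint from the data and not a stated design. The column names of female RNA carry the same numbers in EE and SH, but nothing states that these mark pairs. In male RNA the column names of same-numbered replicates mostly carry different numbers in EE and SH. The male block and correlations therefore do not follow the column names.

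Counts over all genes or regions moved more. In female RNA (0 called) they were 117 with DESeq2, 1 with total count scaling, 168 without the low-count filter, 95 with the replicate block, 56 with the non-neuronal and 1 with the striatal covariate, and 0 to 85 with a library left out (85 without SH replicate 2). In male RNA (6 called) they were 61 with DESeq2, 136 without the filter, 3 with the block, 0 with the striatal covariate and 0 to 11 with a library left out. In female ATAC (78 called) they were 122 with DESeq2, 34 with the block and 22 to 333 with a library left out. In male ATAC (0 called) they were 7 with DESeq2, 1 with the block and 0 to 3 with a library left out. For the interaction (1 called) they were 91 with DESeq2, 0 with total count scaling, 92 without the filter, 4 with the 0.5 CPM filter, 28 with the block within sex and 0 to 39 with a library left out. The causes were not tested.

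The group medians kept their value within the spread between libraries, except near deep-layer genes in female ATAC (0.09 with all libraries and 0.0436 within 20 kb, and 0.0666 to 0.1426 with a library left out, highest without SH replicate 1) and near upper-layer genes there (-0.0083 with all libraries and -0.0233 to 0.0097 with a library left out, highest without SH replicate 2, 0.0058 with total count scaling and 0.0022 within 20 kb). Medians near 0 also turned sign with a library left out. In female RNA the deep-layer median ran from -0.0451 to 0.0349 (above 0 without EE replicate 4 or SH replicate 3), and in male RNA the upper-layer median from -0.0097 to 0.0879 (below 0 without SH replicate 1). In male ATAC the upper-layer median ran from -0.0004 to 0.0218 (below 0 without EE replicate 3, and -0.0057 within 20 kb) and the deep-layer median from -0.0174 to 0.0065 (above 0 without EE replicate 5, and 0.0053 with total count scaling).

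Of 79 values for named genes and regions, 18 changed sign under some setting, none of them called. With a library left out the log2 fold change ran in female RNA from -0.0182 to 0.0664 for Cux1, -0.0894 to 0.0761 for Ntsr1 and -0.0920 to 0.0198 for Deptor, and in male RNA from -0.0275 to 0.0445 for Cux2 and -0.0991 to 0.0017 for Foxp2. For the interaction of Oprk1 it ran from -0.0888 to 0.1431. For start regions it ran in female ATAC from -0.1005 to 0.2922 (Oprk1), -0.2130 to 0.0122 (Ldb2), -0.0517 to 0.0393 (Foxp2) and -0.0775 to 0.0621 (Unc5d). In male ATAC it ran from -0.1086 to 0.1038 (Oprk1), -0.1102 to 0.0135 (Cntnap5a), -0.0175 to 0.0909 (Bcl11b), -0.0787 to 0.0796 (Ntsr1), -0.1268 to 0.0060 (Cux2), -0.0473 to 0.0518 (Foxp2) and -0.0698 to 0.0192 (Unc5d). Under the striatal covariate it was -0.0060 for Foxp2 and -0.0249 for Ntsr1 in females and 0.0188 for Cux2 in males, where Cux2 was also 0.0129 with the non-neuronal covariate and 0.0046 without the filter. Total count scaling gave 0.0120 for the female Foxp2 start region (0.0031 with DESeq2), 0.0123 for the male Oprk1 region and 0.0035 for the male Foxp2 region.

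Members of low level rest on few reads, and in females the 95% intervals of Cartpt, Pou3f1 and Pcp4 reached past a log2 fold change of 1.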
